A study of Mus musculus with 4 samples.

Results

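The lysyl oxidase family of the mouse has 5 genes, Lox, Loxl1, Loxl2, Loxl3 and Loxl4, and RNA sequencing gave their transcript levels in a neural tissue model. All 5 were found by symbol among the 23874 genes of the deposited count table. The family was selected on measured values, because it was proposed with the contrast between the groups already known. The members' counts, levels and fold changes are therefore given as descriptions, and no test of a member is reported. The tissue was grown from neurospheres, clusters of neural stem and progenitor cells, set in Matrigel, a basement membrane extract rich in laminin and type IV collagen. It was fed medium with 20 ng/ml basic fibroblast growth factor. In the EF group a field of 150 mV/mm was applied to the tissue for 30 min on each of 3 days, and 7 more days of culture followed. The noEF group, in the same gel and medium per the labels, was not stimulated. Each group had 2 libraries here, while the labels state 3 replicates a group. The labels name no mouse strain, age or separate cultures, and the p-values below therefore reflect how far these libraries differ, which may be technical. Totals ran from 33748880 to 34554537 counts a library. The sample labels describe noEF as engineered tissue, whereas the series design calls the controls stem cell suspensions. What noEF was thus rests on the sample labels.

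Lysyl oxidases are secreted, copper-dependent amine oxidases. They turn lysine and hydroxylysine side chains of collagen and elastin into aldehydes, which then condense into the covalent crosslinks that stiffen a matrix. Lox and Loxl1 are made as proenzymes that BMP1 cleaves, whereas Loxl2, Loxl3 and Loxl4 carry scavenger receptor domains in front of the catalytic domain, and Loxl2 is known for crosslinking type IV collagen of basement membranes.

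The catalytic domain is the region that all members share, and the stretch of 33 coding bases for its copper-binding histidines shows how close the members are. It is shown for the 4 members below, 5′ to 3′ in the coding strand, from GENCODE M21 transcripts on GRCm38. Capitals mark the 20 positions at which all 4 have the same base. The first base of Loxl2 lies at the lower coordinate of its interval, chr14:69682316-69689037 on the plus strand, and the other intervals are chr9:58293720-58294381 (minus, Loxl1), chr6:83049995-83050125 (plus, Loxl3) and chr19:42598807-42599899 (minus, Loxl4).
Loxl1: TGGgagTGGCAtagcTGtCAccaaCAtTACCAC
Loxl2: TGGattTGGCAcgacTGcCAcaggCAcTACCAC
Loxl3: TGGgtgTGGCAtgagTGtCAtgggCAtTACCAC
Loxl4: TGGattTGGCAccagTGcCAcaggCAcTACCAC

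Each interval spans an intron. The stretch crosses an exon junction after base 23 in all 4 genes, between exons 3 and 4 of Loxl1, exons 10 and 11 of Loxl2 and of Loxl3, and exons 11 and 12 of Loxl4. Of the 33 bases, Loxl4 has 31, Loxl3 has 25 and Loxl1 has 22 in common with Loxl2. Over whole coding sequences the translated products of Loxl2, Loxl3 and Loxl4 were 56.3% to 56.6% identical to each other at aligned residues. Lox and Loxl1 were 57.5% identical, and Loxl2 and Lox 40.7%. The products have 411 residues (Lox), 607 (Loxl1), 776 (Loxl2), 754 (Loxl3) and 758 (Loxl4). Despite this likeness, Loxl2 transcripts shared no run of 31 bases with any other member, and their longest common run was 28 bases, with Loxl1. Among all pairs only Lox and Loxl1 shared a run of that length, and their longest common run was 32 bases.

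Loxl2 was the member with a large difference between the groups. It had 129 counts in EF 1 and 133 in EF 2, against 7 in noEF 1 and 25 in noEF 2. As CPM, each count relative to its library total after TMM scaling, these are 3.61 and 3.81 in EF and 0.215 and 0.743 in noEF. Both EF libraries thus stood well above both noEF libraries and lay close together, 1.05-fold apart, while the noEF libraries were 3.46-fold apart. The mean of the EF libraries was 3.71 ± 0.14 CPM and that of the noEF libraries 0.479 ± 0.374 CPM (SD over n = 2 libraries). Loxl2 was 7.67-fold higher in EF, a log2 fold change of 2.94 (SE 0.54). The ratio of summed counts, 262 against 32, was also 7.67, with an exact conditional binomial interval at 95% from 5.3 to 11.5 that covers counting error only. The size of the fold rested on the noEF libraries. Without noEF 2 it was 17.0-fold and without noEF 1 it was 4.98-fold. Of 960 tested genes with 20 to 50 counts summed over the noEF libraries, 144 (15%, Loxl2 included) had noEF libraries at least 3.46-fold apart.

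**Figure D1:**
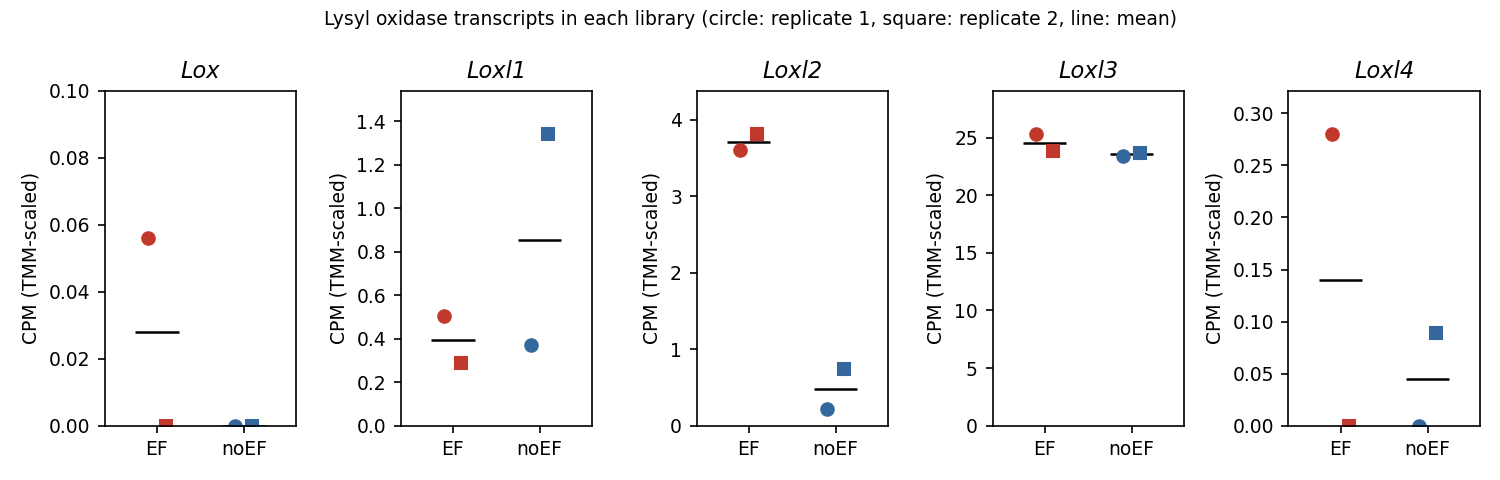
Level of each lysyl oxidase transcript in CPM (vertical axes, linear and different for each gene) in the EF and noEF libraries. Each point is 1 library and each line a group mean. For Loxl2 both EF points (3.61 and 3.81 CPM) lie above both noEF points (0.215 and 0.743 CPM), and for Loxl1 the noEF points are far apart.

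The gene lies on chromosome 14 of GRCm38, 69609068 to 69695834, plus strand (ENSMUSG00000034205). Its exons overlap the antisense gene Gm27177 over 301 bases, 5.57% of the exon bases of Loxl2. The library protocol describes no step that keeps the strand, so reads from that stretch cannot be told apart. Within 200 kb of Loxl2 the table held 8 other genes, of which 6 were tested. These genes were looked at after values had been seen. Of the 6, 0 were called (Benjamini-Hochberg adjusted p under 0.05 in the quasi-likelihood test of edgeR over all genes), 0 had an unadjusted p under 0.05, and DESeq2 and limma-voom called 0. Their log2 fold changes ran from -0.17 to 0.29. The nearest, R3hcc1, lay 1.47 kb away and had 23.8 and 25.3 CPM in EF against 29.2 and 26.1 CPM in noEF. Chmp7, a gene of the membrane-remodelling ESCRT machinery 21.2 kb away, had 68.9 and 64.7 against 74.6 and 69.3 CPM. No tested gene within this distance had a fold near that of Loxl2.

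**Figure D2:**
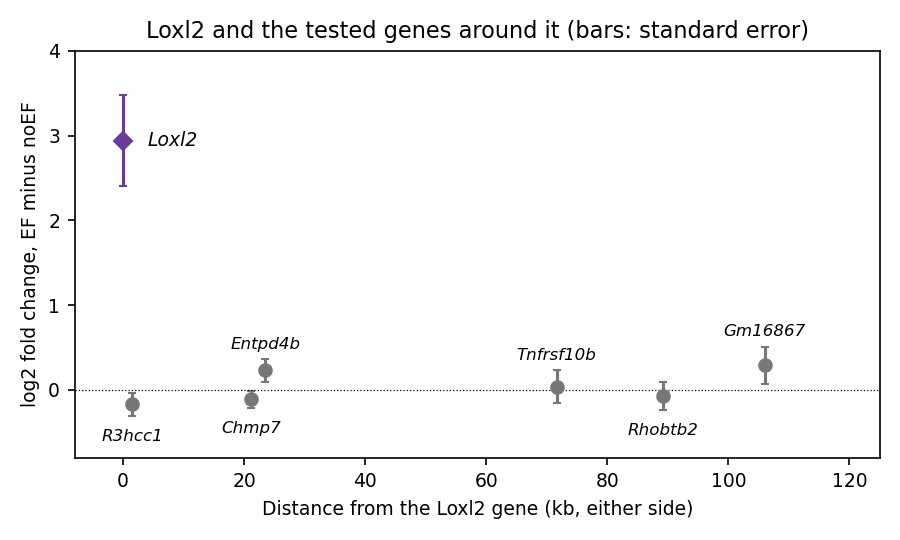
Log2 fold change, EF minus noEF, of Loxl2 (diamond) and of the 6 tested genes within 200 kb (circles) against their distance from Loxl2 in kb, either side. Bars are standard errors. Loxl2 stands at 2.94 and its neighbours between -0.17 and 0.29.

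Loxl3 had the highest level of the members, per exon length too, and the groups differed little. It had 902 and 831 counts in EF and 763 and 796 in noEF, or 25.3 and 23.8 CPM against 23.4 and 23.7 CPM. The lower EF library lay just above the higher noEF library, so the groups did not overlap, but the distance between them was smaller than that between the EF libraries. The log2 fold change was 0.06 (SE 0.14), or 1.04-fold, with an interval of the count ratio from 0.973 to 1.12. Loxl3 (ENSMUSG00000000693; chromosome 6, 83034173 to 83052562, plus strand) is known for its part in cartilage and palate development. It shares 535 exon bases, 11.6% of its own, with Htra2 on the opposite strand, a mitochondrial protease gene at 24.8 and 29.7 CPM in EF and 25.6 and 27.4 CPM in noEF. How many Loxl3 counts came from that overlap was not tested.

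Loxl1, whose product serves the renewal of elastic fibres, was low and uneven. It had 18 and 10 counts in EF and 12 and 45 in noEF, or 0.504 and 0.287 against 0.369 and 1.34 CPM. The single high library was noEF 2, and the groups overlapped. The log2 fold change of -1.10 (SE 0.88) was little larger than its standard error, and without noEF 2 it turned to 0.10 (SE 1.51). Loxl1 (ENSMUSG00000032334) lies on chromosome 9, 58287738 to 58313186, minus strand.

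Loxl4 and Lox were close to absent from the counts. Loxl4 (ENSMUSG00000025185; chromosome 19, 42593982 to 42612813, minus strand) had 10 counts in EF 1 and 3 in noEF 2, and 0 in both other libraries. All EF counts came from 1 library, and the ratio of 10 to 3 counts, 3.12, had a counting interval from 0.805 to 17.7. Lox, the founding member of the family (ENSMUSG00000024529; chromosome 18, 52516067 to 52529867, minus strand), had 2 counts in EF 1 and 0 in each of the other libraries. A count of 0 allows up to 3 counts, which is 0.084 to 0.0922 CPM in these libraries, so a difference in Lox was not detectable at this depth. Among all genes, 57 to 76 had a count of 1 in a library and 239 to 294 a count of 2, so single counts may not be independent fragments and counting intervals may be too narrow.

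The order of the members can be read from levels per exon length (RPKM, which is CPM per kb of exon). For the EF libraries Loxl3 led with 5.49 and 5.17 RPKM. Loxl2 followed with 0.669 and 0.705 RPKM, then Loxl1 with 0.153 and 0.0869, Loxl4 with 0.0665 and 0, and Lox with 0.0117 and 0. The first 3 did not overlap with each other in EF, while Loxl4 and Lox did. In noEF Loxl3 again came first at 5.09 and 5.14 RPKM, but Loxl1 at 0.112 and 0.406 and Loxl2 at 0.0398 and 0.138 overlapped, and Loxl4 (0 and 0.0212) and Lox (0 in both) followed. Loxl2 made up 10.5% and 11.8% of the summed RPKM of the family in EF and 0.759% and 2.41% in noEF. Loxl3 made up 85.9% and 86.7% in EF and 97.1% and 90.1% in noEF. Summed over the family, the level was 6.39 and 5.97 RPKM in EF and 5.25 and 5.71 RPKM in noEF. Of all tested genes with a known exon length, 53.3% had a lower mean RPKM than Loxl3, 12.0% a lower one than Loxl2 and 6.48% a lower one than Loxl1. In bulk RNA, a change in the number of cells that express a gene and a change in RNA per cell cannot be told apart.

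**Figure D3:**
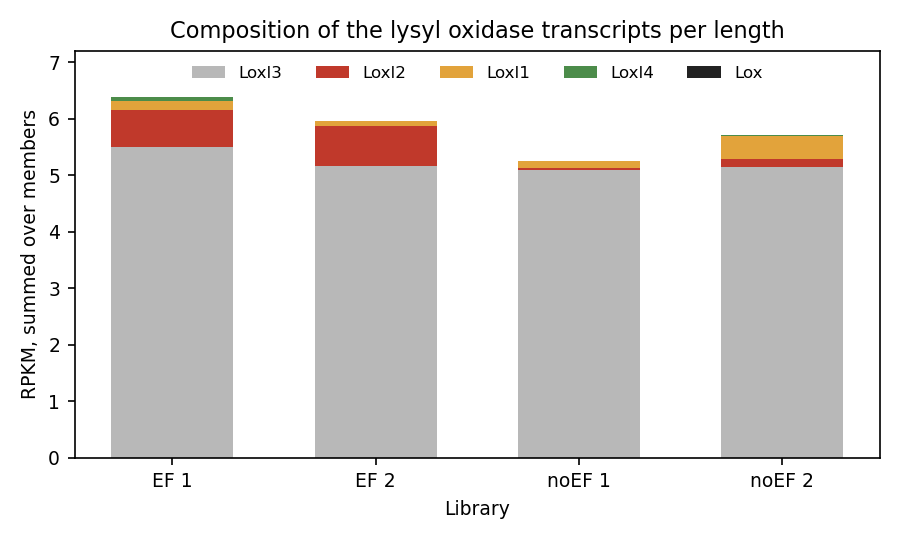
Summed level per exon length (RPKM, vertical axis) of the 5 lysyl oxidase genes in each library, stacked by gene. Loxl3 fills most of every bar, and the Loxl2 segment is 0.669 and 0.705 RPKM in EF against 0.0398 and 0.138 RPKM in noEF.

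Lox and Loxl4 did not pass the filter on low counts, so 3 of 5 members entered the fit across all genes. In 2 of these 3 members, Loxl2 and Loxl3, both EF libraries lay above both noEF libraries in CPM, as they did in 27.6% of all tested genes. Because the family was proposed from this contrast, nothing is read from this count. Among all 14263 tested genes 3.83% were called higher and 4.99% lower. Of all calls 43.4% were higher with TMM scaling and 69.3% with library totals. The values of Loxl2 under each way of processing are given in the plot of its settings, where the log2 fold change ran from 2.32 to 4.08.

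**Figure D4:**
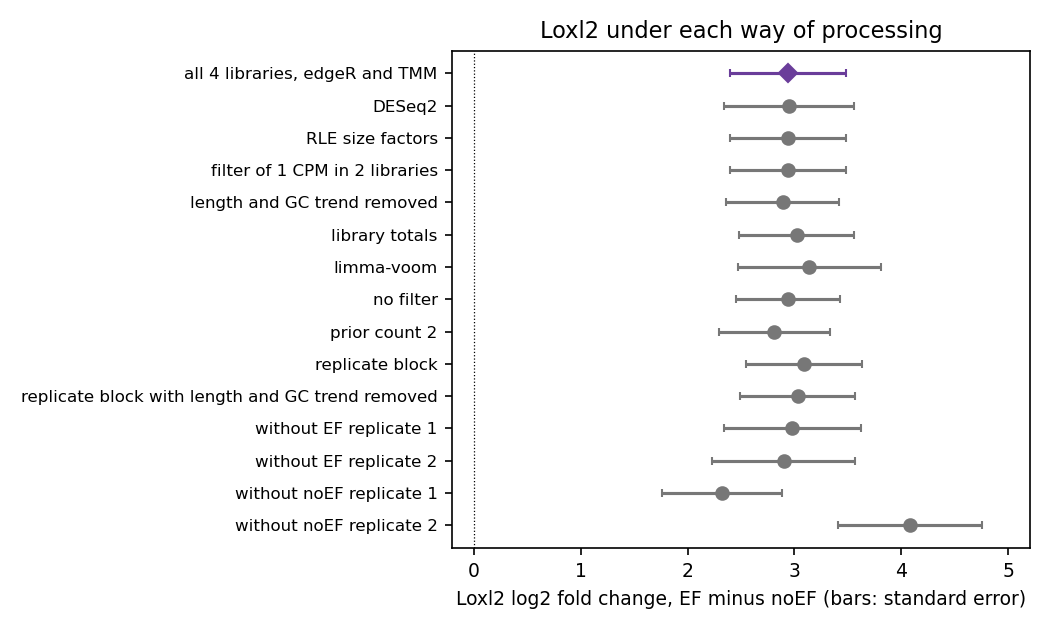
Log2 fold change of Loxl2, EF minus noEF, with standard errors, from the fit of all 4 libraries (diamond, 2.94) and under each of 14 alternatives (circles). The lowest value, 2.32, is without noEF 1 and the highest, 4.08, is without noEF 2.

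Genes most like a member over the 4 libraries were found by the Euclidean distance between log2 CPM values centred on each gene's mean. The search covered 11900 tested genes with a mean of at least 1 CPM. Genes with symbols of predicted models, clones or pseudogenes, or without a mouse Ensembl identifier, were left out of it. For Loxl2 the nearest was Pcdhgb8 (distance 0.747), at 9.97 and 5.79 CPM in EF and 0.584 and 2.17 CPM in noEF. Pcdhgc4 followed at 1.04 and Akap11 at 1.21. Pcdhgb8 and Pcdhgc4 are clustered protocadherin genes that share their constant exons, so their counts are uncertain. Akap11, which encodes an anchor of protein kinase A, had 76.9 and 81.0 CPM in EF against 10.5 and 10.9 CPM in noEF, with a log2 fold change of 2.88 (SE 0.12). For Loxl3 the nearest were Nqo2 (0.00437), Klhl22 (0.00579) and Dnm2 (0.0116), each with a log2 fold change of 0.06.

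The partners of lysyl oxidases in matrix assembly were read from 8 lists with 110 genes and none of the 5 members. The lists were chosen by role, but with earlier results of these data known. Their shares and medians beside those of all genes are therefore descriptions. All 110 were found and 98 were tested. Of these, 13 (13.3%) were higher in EF and 3 (3.06%) lower, beside 3.83% and 4.99% of all tested genes. The median log2 fold change was 0.12 over the 98 and 0.01 over all genes. The number of higher genes fell to 7 without EF 1, 7 without EF 2 and 8 without noEF 1, and the number of lower genes ran from 1 (without noEF 1) to 6 (without EF 2). All calls that follow are edgeR calls, adjusted over all genes by the Benjamini-Hochberg method. Calls lost with a block for the replicate number are named in the last paragraph only.

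The substrates showed no called difference. Of 8 tested fibrillar collagen and elastin genes 0 were called in edgeR, DESeq2 or limma-voom and 1 had an unadjusted edgeR p under 0.05, with a median log2 fold change of 0.13. Elastin (Eln) had 25 and 27.1 CPM in EF and 24.6 and 24.2 CPM in noEF, and Col5a2, a chain of type V collagen, 28.9 and 27.3 against 24.3 and 30.8 CPM. The transcripts of type I and III collagen, the main fibre-forming chains of connective tissue, were nearly absent. Col1a1 had 17 and 0 counts in EF and 14 and 0 in noEF, and Col3a1 2 and 0 in each group. Col1a2, the other type I chain, had 6 and 18 counts in EF and 0 and 0 in noEF. All of these were named after their values were seen. Of 11 tested basement membrane genes 0 were called in edgeR, 4 had an unadjusted p under 0.05 (2 in each direction), DESeq2 called 1, Col4a6, as lower, and limma-voom called 0. The median was 0.06. Col4a1, a chain of the type IV collagen for which Loxl2 is known, had 86.0 and 89.2 CPM in EF against 72.9 and 73.7 CPM in noEF (log2 fold change 0.26, SE 0.09, adjusted p = 0.0988). Col4a5 had 89.5 and 84.8 against 88.8 and 102 CPM (-0.13, SE 0.10). Pxdn, whose product peroxidasin crosslinks type IV collagen by another chemistry, had a log2 fold change of -0.37 (SE 0.13, adjusted p = 0.0813) and Col4a6 one of -0.53 (SE 0.16, adjusted p = 0.0527). These 2 were named after their values were seen.

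Enzymes that modify collagen chains before secretion were higher in part. Of 17 tested genes 4 were higher, 0 were lower and 13 were not called (median 0.14). P4ha1, the catalytic subunit of prolyl 4-hydroxylase, rose from 70.8 and 73.6 CPM in noEF to 102 and 98.5 CPM in EF (log2 fold change 0.47, SE 0.09, adjusted p = 0.00517). Plod2, a lysyl hydroxylase that makes the hydroxylysines which lysyl oxidases use in collagen telopeptides, rose from 12.1 and 16.6 to 28.7 and 22.8 CPM (0.85, SE 0.18, adjusted p = 0.0111). It lost its call without EF 1. P3h3, of the prolyl 3-hydroxylase family, and Colgalt1, which adds galactose to hydroxylysine, were higher by 0.53 and 0.32 (adjusted p = 0.0361 and 0.0454). Both lost their calls in limma-voom and without EF 2, P3h3 also without noEF 2, and Colgalt1 also without EF 1 or noEF 1. Colgalt1 shares 11.4% of its exon bases with Unc13a on the opposite strand. The chaperones P4hb (479 and 475 against 448 and 451 CPM) and Ppib (293 and 327 against 409 and 344 CPM) were not called, and nor were the other lysyl hydroxylases, Plod1 and Plod3.

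Of 11 tested genes that process procollagen and prolysyl oxidase or hold them in place, 3 were higher and 0 lower (median 0.53). Thbs1, the matricellular protein thrombospondin 1, rose from 7.87 and 8.15 CPM to 19.7 and 14.8 CPM (log2 fold change 1.11, SE 0.19, adjusted p = 0.00229). Adamts14, a procollagen N-proteinase, rose from 6.15 and 9.10 to 13.1 and 13.8 CPM (0.82, SE 0.21, adjusted p = 0.0263), a call lost without EF 1, without EF 2 or without noEF 1. Fn1, the scaffold protein fibronectin, was at 21.1 and 25.4 CPM in EF against 15.2 and 17.0 CPM in noEF (adjusted p = 0.049), and it was called in 6 of 13 alternatives, not without EF 2 or noEF 1. Bmp1, the protease that activates the Lox proenzyme, had 187 and 175 against 182 and 169 CPM and was not called. Efemp2, the fibulin that binds Lox on elastic fibres, had 86.2 and 95.8 against 116 and 103 CPM (adjusted p = 0.107). Periostin (Postn) had no count in any library.

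Elastic fibre genes moved in both directions. Of 12 tested, 3 were higher, 1 was lower and 8 were not called (median 0.20). Fbln2 rose from 89.4 and 90.5 CPM to 191 and 197 CPM (log2 fold change 1.11, SE 0.08, adjusted p = 3.13e-06) and Fbln1 from 23.3 and 21.6 to 33.9 and 36.6 CPM (0.65, SE 0.13, adjusted p = 0.00664). Both encode fibulins, glycoproteins of basement membranes and elastic fibres. Efemp1, another fibulin gene, fell from 9.43 and 10.2 CPM to 3.92 and 3.93 CPM (-1.32, SE 0.23, adjusted p = 0.00222). These 3 calls held in all 13 alternatives. Fbn2, the microfibril protein fibrillin 2, was at the threshold (0.53, SE 0.16, adjusted p = 0.04995) and was called in 5 of 13, not without EF 1, EF 2 or noEF 1. Ltbp3, which tethers latent TGF-beta to the matrix, had 138 and 139 against 142 and 137 CPM.

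The copper supply list had the lowest median, -0.55, with 9 of 12 log2 fold changes below 0, but its calls depended on the tool. Of 12 tested genes edgeR called 1 lower and 0 higher, DESeq2 called 5 lower (Atox1, Ccs, Cox17, Mt1 and Mt2) and limma-voom 4 (Ccs, Mt1, Mt2 and Mt3). The gene called by edgeR was Ccs, the copper chaperone of superoxide dismutase, which fell from 41.7 and 38.6 CPM to 28.2 and 28.9 CPM (-0.49, SE 0.12, adjusted p = 0.0234). Its call was lost with the length and GC trend taken out, and without EF 1, EF 2 or noEF 1. The metallothionein gene Mt1, which binds copper and zinc, had 342 and 570 CPM in EF and 1123 and 877 CPM in noEF. Its log2 fold change of -1.13 (SE 0.39) was not called by edgeR (adjusted p = 0.291), and nor was that of Mt3 (-1.09, SE 0.57). Atp7a, the pump that loads copper onto secreted enzymes such as lysyl oxidases, averaged 1.78 ± 1.09 CPM (SD) over the EF libraries and 0.634 ± 0.0708 CPM over the noEF libraries. It was not called (edgeR adjusted p = 0.171). It was named after its values were seen.

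Signals known to act on lysyl oxidase genes were read from the TGF-beta and hypoxia lists. Their calls stand beside 3.83% of all tested genes called higher and 4.99% called lower. Of 12 tested TGF-beta genes 1 was higher and 1 lower (median 0.18). Ccn2, the connective tissue growth factor (listed under the older symbol Ctgf), rose from 2.55 and 4.04 CPM to 8.07 and 6.05 CPM (log2 fold change 1.10, SE 0.30, adjusted p = 0.0316), a call lost in limma-voom, without EF 1 and without noEF 1. Tgfb3, a ligand, fell from 7.13 and 6.81 to 3.95 and 3.52 CPM (-0.90, SE 0.26, adjusted p = 0.0404), but it was called in 6 of 13 alternatives and in none that left out a library. Tgfb2 and Smad3 were not called. Of 15 tested hypoxia genes 2 were higher and 0 lower (median 0.10). Egln3, an oxygen-sensing prolyl hydroxylase, had 29.5 and 25.8 CPM in EF against 16.3 and 13.2 CPM in noEF (0.91, SE 0.16, adjusted p = 0.00255). Ldha, lactate dehydrogenase, rose by 0.33 (SE 0.08, adjusted p = 0.0188) and lost its call without EF 1, EF 2 or noEF 2. Pgk1, a glycolytic enzyme with 887 and 855 against 817 and 788 CPM, was not called.

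**Figure D5:**
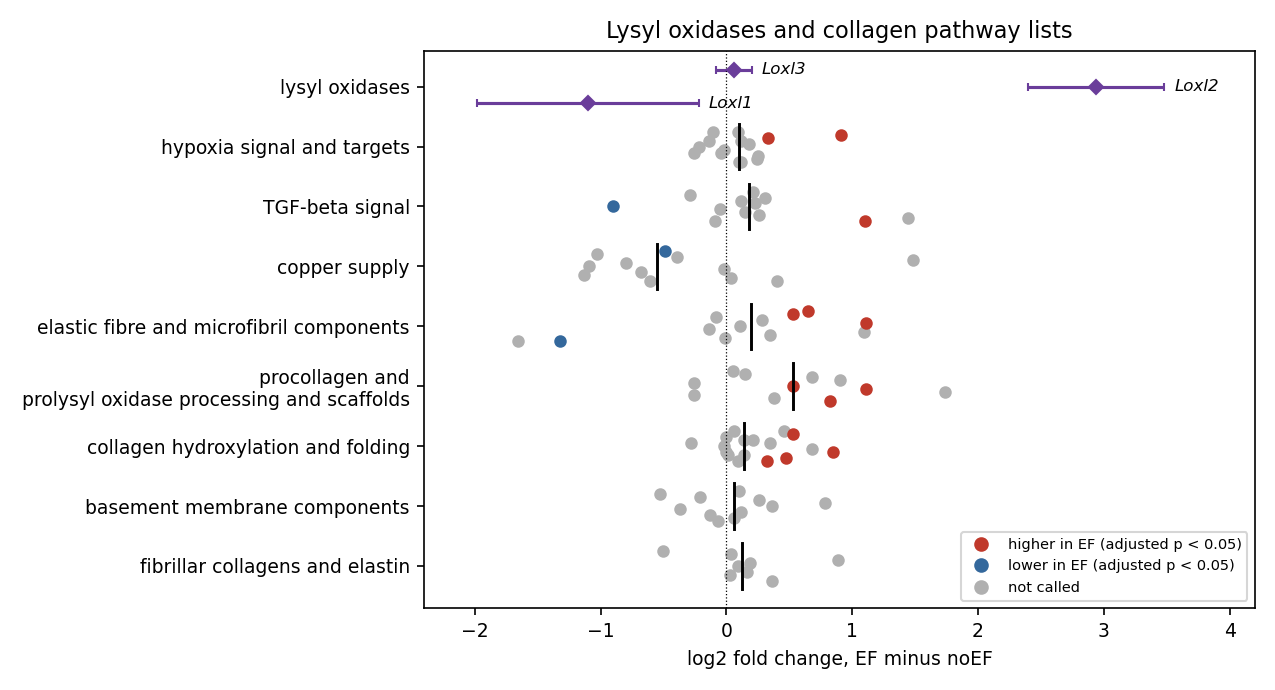
Log2 fold change, EF minus noEF, of each tested gene in the 8 lists (circles, red for higher and blue for lower at an adjusted p under 0.05, grey for not called) with the list median as a black line. The top row shows Loxl1, Loxl2 and Loxl3 (diamonds) with standard errors, Loxl2 at 2.94 being further from 0 than any gene of the lists.

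Markers of cells that are known to make lysyl oxidases were read beside Loxl2. Endothelial markers summed to 2.35 and 1.86 CPM in EF against 1.23 and 1.04 CPM in noEF. Loxl2 itself had 3.61 and 3.81 against 0.215 and 0.743 CPM. Of 2 tested endothelial genes (median log2 fold change 1.00) 0 were called in edgeR, DESeq2 or limma-voom, and 0 had an unadjusted p under 0.05. Kdr had 40 and 34 counts in EF against 18 and 25 in noEF, and Pecam1 31 and 15 against 17 and 0. Flt1 had 3 and 16 against 0 and 10 counts, and Tek 10 and 0 against 0 and 0. Cldn5 went the other way, with 0 and 0 against 5 and 0. The defining marker Cdh5 was at 0 in every library. The summed mural cell markers were 46.0 and 50.6 against 38.3 and 41.5 CPM, of which Notch3 gave 34.7 and 43.2 against 33.5 and 36.9 CPM. In that list 1 of 4 tested genes, the smooth muscle actin Acta2, was higher (8.68 and 4.84 against 3.13 and 2.88 CPM, edgeR adjusted p = 0.0309). This call was lost in limma-voom and without EF 1. Of the low-count mural genes, Vtn had 14 and 8 counts in EF against 0 and 0 in noEF, and Myh11 8 and 4 against 0 and 0. Tagln had 42 and 50 against 30 and 23 counts and Rgs5 30 and 26 against 24 and 35. Kcnj8 was at 0 in every library. The fibroblast and meningeal markers summed to 22.3 and 31.1 against 27.5 and 30.0 CPM, nearly all from Foxc1, with 0 of 3 tested genes called in edgeR (1 at an unadjusted p under 0.05), 0 in DESeq2 and 1, Pdgfrb as lower, in limma-voom, and Lum at 0. In the fibroblast and meningeal list, Twist1 had 4 and 16 counts in EF against 0 and 3 in noEF, and Col1a2 6 and 18 against 0 and 0. In the other direction, Pdgfrb had 0 and 0 against 10 and 13 counts, and Dcn 0 and 0 against 0 and 5. The low-count endothelial, mural, fibroblast and meningeal genes were named after their values were seen. Of 6 microglia and macrophage genes 5 had no count. The part of such cells in the Loxl2 difference was not tested. Markers of the labelled cells were plentiful. Neural stem and progenitor genes summed to 4974 and 5277 CPM in EF and 6729 and 6350 CPM in noEF. Most of this came from Fabp7 (2281 and 2449 against 3553 and 3157 CPM) and Vim (2176 and 2291 against 2616 and 2603 CPM). Fabp7 was lower in EF and 5 of 6 were not called in edgeR, while DESeq2 called 3 lower. The log2 fold changes of Nes, Pax6, Msi1 and Sox2 were 0.14, 0.12, 0.01 and -0.27. Of 6 astrocyte genes 3 (Gfap, Aqp4 and Gja1) were lower. All 6 together summed to 4682 and 4377 against 4762 and 5075 CPM. Of this sum Slc1a3, which was not called, gave 2992 and 2733 against 2484 and 2638 CPM. Of 6 neuronal genes 0 were called in edgeR, DESeq2 or limma-voom, with 2 at an unadjusted edgeR p under 0.05, and of 6 oligodendrocyte lineage genes 1, Pdgfra, was lower in edgeR, a call lost with library totals, in limma-voom, and without EF 1 or noEF 2.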

How the data were processed

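Per the labels' protocols, polyadenylated RNA was fragmented, copied from random hexamers and sequenced, with no step named that keeps the strand. The authors deposited raw counts per gene. Per the submitters' processing notes HISAT2 2.0.4, StringTie 2.2.1, DESeq2 1.44.0 and GRCm38 were used. How reads were assigned to genes, and with which strand setting, is not given in the sources used here. Totals ran from 33748880 to 34554537 counts per library, and the biological coefficient of variation was 0.161.

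The 4 libraries were compared with edgeR 4.0.16 in R 4.3.3 (filterByExpr, minimum count 10 and total 15, TMM, robust quasi-likelihood F test, Benjamini-Hochberg over 14263 genes, threshold 0.05), which was tested on simulated data. Each standard error was obtained as the absolute log2 fold change over the root of F. CPM values use TMM-scaled library sizes, and RPKM divides them by the union of exons in GENCODE M21 (GRCm38). Count ratios carry exact conditional binomial intervals. The alternatives were other scalings and filters, DESeq2 1.42.0, limma-voom (limma 3.58.1), a replicate block, a spline offset for length and GC, and each library left out. Members and lists were chosen with earlier results of these data known. Named genes are the members, the called genes of each list (at most 6) and its 2 most abundant, and the 3 nearest in pattern. Protein alignments used translated coding sequences and BLOSUM62.
Counts of calls by tool, Loxl2's neighbouring genes and genes said to be named afterwards were added after values were seen.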

Additional observations from a re-analysis of the deposited data

How the results depend on the processing

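Loxl2 kept its direction in all 14 alternatives. Its log2 fold change was 2.94 with all libraries and 2.32 to 4.08 as each library was left out, the upper end without noEF 2. Loxl1 turned from -1.10 to 0.10 without noEF 2, in a range of -1.75 to 0.10 over the libraries left out. Loxl3 was at 0.15 with library totals and at 0.02 to 0.10 with a library left out, against 0.06. Loxl4, as a ratio of summed counts, was at 1.64, and at 0.67 to 2.63 without noEF 1 or EF 2. It gave no value without EF 1 or noEF 2, where 1 group had 0 counts, and Lox gave none at all.

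Over all genes 546 were called higher and 712 lower. With library totals 1138 were higher, among them all of the 546. Library totals moved the median log2 fold change over all genes from 0.01 to 0.10, so a higher call could hardly be lost there. Without the filter 915 were higher and 1203 lower. Leaving out a library gave 217 to 790 higher and 337 to 1065 lower, the lowest without EF 1. Of the 13 pathway genes called higher, 8 remained in limma-voom, 7 to 11 with a library left out and all 13 with library totals. Of pathway genes, 3 were called lower, against 8 in DESeq2 and without the filter, 7 with the length and GC trend removed, 5 in limma-voom, and 1 to 6 with a library left out. Of the 3 called lower, 3 remained in DESeq2 and without the filter, and 2 in limma-voom and with the trend removed. With the replicate block and the trend removed together, 1 of them remained. Where a group is left with 1 library, it is assumed to vary like the other group.

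Same-numbered libraries did not deviate together (correlation -0.0817 over 14263 genes). Each group has only 2 libraries, so this correlation cannot decide whether same-numbered libraries shared a culture or a batch. The submitters' own library names also give EF 2 a different number. With the replicate block, 410 genes were higher and 568 lower, and 8 pathway genes were higher. With the replicate block and the length and GC trend removed together, 301 genes were higher, 445 were lower and 7 pathway genes were higher. With the block alone, P3h3, Colgalt1, Fn1, Fbn2 and Ldha lost their calls. With the block and the trend removed together, P3h3, Colgalt1, Fn1, Fbn2, Plod2, Ccn2, Tgfb3, Ccs and the marker Fabp7 lost theirs. Loxl2 was at 3.09 with the block. With 2 libraries a group, depth leaves Lox and Loxl4 undecided.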
